A study of Mus musculus with 19 samples.

Results

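The loci described here are those of the mouse DNA methyltransferase genes Dnmt1, Dnmt3a and Dnmt3b and of their cofactor Dnmt3l. Their members are all deposited peaks of 5-hydroxymethylcytosine (5hmC) that overlap an mm9 window around each gene: chr9:20705000-20765000 for Dnmt1, chr12:3795000-3920000 for Dnmt3a, chr2:153465000-153520000 for Dnmt3b and chr10:77495000-77535000 for Dnmt3l. These windows held 568 of the 1601520 peaks in the 18 deposited lists. Merged wherever they overlapped, the peaks formed 130 of the 360970 regions on chromosomes 1 to 19 and X. Dnmt1 had 225 peaks in 42 regions, Dnmt3a had 244 in 60, Dnmt3b had 57 in 16 and Dnmt3l had 42 in 12.

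The study followed 5hmC while pre-iPSCs, stalled intermediates of reprogramming derived from mouse embryonic fibroblasts (MEFs), were carried on towards induced pluripotent stem cells. KO cells had 2 libraries a day (KO1 and KO2) and WT cells 3 (A, B and C), at days 0, 2 and 10 (D0, D2 and D10). V6.5 mouse embryonic stem cells (mESCs) had 1 library each at 0, 12 and 72 hours, and an input library of untreated D0 pre-iPSCs had no list. All libraries but the input were labelled with ascorbic acid (AA, 50 µg/mL) plus 2i, the GSK3 inhibitor CHIR-99021 with the MEK inhibitor PD-0325901, D0 included. The labels do not name the gene deleted in KO cells, so the deletion could not be checked, and run names that read CrisprKO for KO1 and CKO-H for KO2 leave it unsaid whether the lines carry the same allele. Nothing says that replicates of a group were separate cultures, so each p-value speaks for the variation among these samples, which may be technical.

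DNMT1 is the maintenance enzyme, which copies methylation onto the new DNA strand after replication. DNMT3A and DNMT3B methylate unmarked DNA de novo, and DNMT3L, which has no catalytic activity of its own, binds and stimulates them, above all in germ cells and early embryonic cells. Their product, 5-methylcytosine at CG dinucleotides, is what TET enzymes oxidise to 5hmC, and in many cell types 5hmC lies along the bodies of transcribed genes. A 5hmC peak at these loci is a measure of the mark, not of the gene's expression.

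DNA before 1 RefSeq start of each of the 4 genes is shown because CG is where both marks sit. Each line gives the 250 bases before the transcription start with the most CG of that gene's RefSeq starts (GRCm38.p6, 5′ to 3′ on the gene's strand), with CG in capitals.
Dnmt1: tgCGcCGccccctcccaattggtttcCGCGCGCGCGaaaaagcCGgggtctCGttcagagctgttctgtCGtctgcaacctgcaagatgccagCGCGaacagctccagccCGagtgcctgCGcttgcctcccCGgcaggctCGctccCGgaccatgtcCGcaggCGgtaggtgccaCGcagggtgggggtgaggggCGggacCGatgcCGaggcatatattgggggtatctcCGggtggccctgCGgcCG
Dnmt3a: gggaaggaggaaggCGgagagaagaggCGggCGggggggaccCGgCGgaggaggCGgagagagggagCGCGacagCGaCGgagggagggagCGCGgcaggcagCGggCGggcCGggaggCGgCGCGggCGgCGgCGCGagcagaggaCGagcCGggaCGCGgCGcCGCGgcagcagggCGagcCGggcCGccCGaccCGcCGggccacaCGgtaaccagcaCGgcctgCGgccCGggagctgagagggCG
Dnmt3b: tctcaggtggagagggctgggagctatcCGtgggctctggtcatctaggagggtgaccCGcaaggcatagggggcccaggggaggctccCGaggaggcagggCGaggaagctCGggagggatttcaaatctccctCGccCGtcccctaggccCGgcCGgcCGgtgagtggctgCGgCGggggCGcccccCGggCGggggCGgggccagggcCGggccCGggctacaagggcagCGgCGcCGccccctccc
Dnmt3l: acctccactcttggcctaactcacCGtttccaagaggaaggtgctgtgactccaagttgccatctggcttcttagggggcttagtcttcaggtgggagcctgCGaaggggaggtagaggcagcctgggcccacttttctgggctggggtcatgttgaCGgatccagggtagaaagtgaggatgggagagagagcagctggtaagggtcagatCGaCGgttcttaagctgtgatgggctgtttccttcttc
The Dnmt3a stretch holds 40 CG, a number reached by 1.31% of the 32851 RefSeq stretches of this length before a start. Dnmt1 holds 26 (9.59% have as many), Dnmt3b holds 21 (16.3%) and Dnmt3l holds 5 (55.6%). Dnmt3b has 1 start, and the others have 3 each, of which the poorest holds 2 CG at Dnmt1, 15 at Dnmt3a and 3 at Dnmt3l. The percentages set each gene's richest stretch beside all single stretches, so they flatter genes with several starts. Where a gene has several starts, the one shown was picked by its CG alone. It need not be the gene's main start, and its stretch may hold sequence transcribed from another start rather than the main promoter. CG reads the same on both strands and was the only motif counted. The peaks are in mm9 coordinates and no mm9 genome or annotation was used here, so these stretches could not be placed among the peaks, and no peak is assigned to an exon, an intron or a promoter. RefSeq puts Dnmt1 on the minus strand and the other genes on the plus strand, so coordinates run against transcription at Dnmt1 and along it elsewhere. The windows are wider than the genes and may include parts of neighbours, which in the same gene table are Eif3g and S1pr2 (Dnmt1), Dtnb and Pomc (Dnmt3a), Commd7 and Mapre1 (Dnmt3b), and Pfkl and Icosl (Dnmt3l).

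The 15 pre-iPSC lists held 55134 to 161004 peaks, and the mESC lists 24130 to 33576. Depth relative to the shared input, read from the steps of the deposited fold values, was 1.15 to 1.67 in KO libraries and 0.968 to 1.64 in WT libraries. To compare lists of equal length, pre-iPSC lists were cut to the 55130 peaks with the highest -log10 p of the authors, called the strongest peaks, and the bp these cover in a locus are called covered bp. Equal length does not mean equal stringency: the weakest peak kept had a -log10 p of 12.1 and 9.62 in KO1 and KO2 at D10, against 8.40, 7.36 and 4.03 in WT A, B and C at D10. In WT A, B and C it was 10.5, 13.3 and 7.35 at D0 and 13.6, 12.7 and 10.1 at D2. In each WT replicate the cut was thus stricter at D0 and D2 than at D10. The library WT C at D0 was called against a background of its own, as its run name lacks the word input that the others carry. Run names fall into styles that may mark batches, with WT A in the first, WT B and KO1 in the second, and WT C and KO2 in the third.

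5hmC spread over the Dnmt1 locus in WT cells over the days. Covered bp at Dnmt1 were 1389, 2219 and 1485 in WT A, B and C at D0, 3687, 3942 and 2067 at D2, with 8275, 9197 and 8802 at D10. The D10 libraries all lay above every D0 and D2 library, while D2 and D0 overlapped. With all deposited peaks, whose lists differ in length, the order was another: covered bp were 2080, 2796 and 1726 in WT A, B and C at D0, 9487, 7418 and 4849 at D2, with 10506, 11891 and 8802 at D10, so D2 lay wholly above D0 and overlapped with D10. Under the strongest peaks the days differed by an exact permutation test of F (two-sided, p = 0.00714, n = 3 a day, smallest possible 0.00357). The mean was 8758 ± 463 bp at D10 against 1698 ± 454 bp at D0 (SD, n = 3 each), a log2 difference of 2.26 on the scale of covered bp + 200 (exact permutation p = 0.1, the smallest that 3 against 3 allows). At D10 the strongest peaks covered 13.8, 15.3 and 14.7% of the Dnmt1 window, while they covered 0.827, 0.813 and 0.667% of the genome. That is 16.7, 18.9 and 22.0 times the genome's share, against 2.44, 2.88 and 3.16 times at D0. The libraries are of bulk DNA, in which more cells with the mark and more mark per cell cannot be told apart.

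KO cells did not reach that coverage. At D10 covered bp at Dnmt1 were 4957 in KO1 and 2752 in KO2, both below all 3 WT libraries. The KO mean at D10 was 3854 ± 1559 bp (SD, n = 2) against 8758 ± 463 bp in WT cells (SD, n = 3), a log2 difference of -1.20 (exact permutation p = 0.1, the smallest that 2 against 3 allows). The same difference was -0.87 between KO1 and WT B and -1.61 between KO2 and WT C, the pairs that share a style of run name. At D0 the KO libraries had 1503 and 1863 bp and at D2 3016 and 2180 bp, within the WT ranges (log2 differences of 0.01 and -0.26, exact permutation p = 0.9 and 0.6). Over the 3 days together KO minus WT was -0.48 (two-sided exact permutation within days, p = 0.06, n = 6 KO and 9 WT libraries), and -0.66 (p = 0.024 by the same exact test) with covered bp scaled to each library's total. That test takes the 6 KO libraries as independent, although KO1 and KO2 are taken to be the same 2 lines on each day. With KO lines and WT letters as units, 2 against 3, it gave p = 0.2 (exact permutation). The smallest possible there is 0.1, so that setting could make no call, and no call over all days was made. The p-values per locus are not adjusted over the 4 loci tested.

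**Figure D1:**
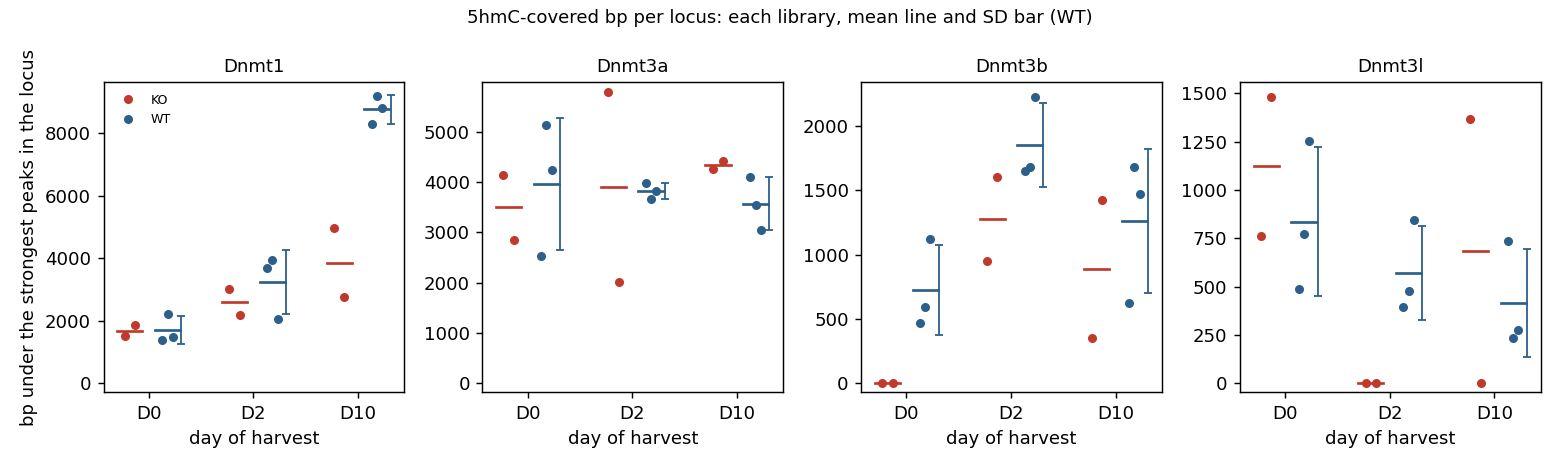
Covered bp (bp under the 55130 strongest peaks of each library) in the 4 loci at D0, D2 and D10, with one point per library, KO in red left of WT in blue, horizontal lines for group means and bars for the WT SD (n = 3; KO n = 2 has no bar). At Dnmt1 the WT D10 libraries lie between 8275 and 9197 bp and the KO D10 libraries at 4957 and 2752 bp.

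The number of deposited peaks of any strength at Dnmt1 was 5, 6 and 5 in WT A, B and C at D0, 25, 18 and 13 at D2, with 23, 25 and 19 at D10. In KO1 and KO2 it was 4 and 7 (D0), 19 and 13 (D2) and 14 and 13 (D10). Peaks were more frequent at D2 than at D0 in both genotypes, as were the peaks of the whole lists in every replicate, and at D10 the KO libraries had fewer than the WT libraries although their lists were longer (112303 and 111281 peaks in KO1 and KO2, against 86465, 77530 and 55134 in WT A, B and C).

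The Dnmt1 locus did not change evenly along its length. Covered bp in windows of 10 kb, scaled to the mean total, were compared across the genome by limma on log2(bp + 200), with Benjamini-Hochberg adjustment over all windows tested. Of the 31 windows that overlap the 4 loci, 8 passed the filter of a mean of 500 bp in the WT fit: 6 at Dnmt1, 2 at Dnmt3a and none at Dnmt3b or Dnmt3l. Only 3 of these 8, and 4 of the 7 tested in the fit of 15 libraries, pass the filter without the group that is highest in them, and a window that passed through its highest group had to differ. For such windows the p printed below is therefore that of the fit with no filter on covered bp, and counts over windows that passed are descriptions. The median tested window shifted by -0.60 for D10 minus D2, -0.19 for D10 minus D0 and 0.38 for D2 minus D0, and changes are as fitted unless stated.

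For D10 minus D2 in WT cells, 5 of the 8 windows were called (3 higher, 2 lower), beside 47.1% of all windows (13.8% higher, 33.2% lower). Relative to the median window it was 6 higher and 1 lower, beside 20.2% and 23.5%. For D10 minus D0 it was also 5 of 8 (4 higher, 1 lower), beside 49.8% (22.7% higher, 27.1% lower), and relative to the median window 4 higher and 0 lower, beside 25.0% and 25.2%. For D2 minus D0 it was 1 of 8, which was higher under both scalings, beside 14.8% higher and 2.97% lower as fitted (17.7% in all) and 8.42% higher and 5.59% lower relative to the median window. With no filter 7 of 30 windows were called for D10 minus D2, beside 17.7% of all windows, and 10 of 30 for D10 minus D0, beside 23.9%. Of the 7, 5 were higher and 2 lower, beside 8181 higher and 8216 lower of all 92431 windows. Of the 10, 8 were higher and 2 lower, beside 9950 higher and 12139 lower of the same 92431. The shares called in either direction, as fitted and with no filter, were therefore not far from the background. Relative to the median window the share called higher was well above it in both contrasts with D10. Most of the 8 windows are neighbours at Dnmt1 and passed the filter through their highest group, so the sizes and positions carry the description. In chr9:20730001-20740000 covered bp were 2995, 2806 and 3721 at D10 in WT A, B and C, against 0, 0 and 0 at D2 and 0, 0 and 390 at D0. The D10 libraries did not overlap with either earlier day. With no filter D10 minus D2 was 4.00 ± 0.42 and D10 minus D0 was 3.50 ± 0.42 (log2 ± SE). No p is given, since outside D10 the window's only covered bp in WT cells were the 390 in WT C at D0. With all deposited peaks WT A, B and C had 0, 275 and 320 bp there at D2 and 0, 0 and 304 bp at D0. At D10 they then had 2535, 2989 and 2470 bp.

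The 2 windows below it in coordinate were also higher at D10. In chr9:20720001-20730000 WT A, B and C had 884, 2597 and 3621 covered bp at D10 and 0 in each library at D2 and D0. The difference was 3.44 ± 0.41 against each day, with no p, since no other WT group has covered bp there. With all deposited peaks WT A, B and C had 2233, 2734 and 2404 bp at D10. They then had 945, 0 and 0 bp at D2 and 0 in each library at D0. In chr9:20710001-20720000 they had 4310, 4027 and 4831 bp at D10, against 0, 915 and 0 bp at D2 and 432, 398 and 399 bp at D0, so this window was covered at D0 already. With no filter its rise was 3.65 ± 0.59 over D2 (limma adjusted p = 0.00294) and 2.89 ± 0.59 over D0 (limma adjusted p = 0.00699). With all deposited peaks the window held 2214, 1320 and 519 bp at D2 in WT A, B and C. It then held 681, 791 and 552 bp at D0 and 3549, 3843 and 3207 bp at D10. The window was thus not bare at D2, and the rise of 3.65 is that under the strongest peaks.

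Above these windows the timing differed. Covered bp in chr9:20740001-20750000 were 471, 962 and 638 at D2 in WT A, B and C, against 0 in each D0 library, a rise of 2.07 ± 0.35 with no filter (limma adjusted p = 0.00572, and 0.0525, not called, in the fit of all 15 libraries with the filter). At D10 they were 1766, 1735 and 767 bp, a rise of 2.89 ± 0.35 over D0 (limma adjusted p = 0.000661). The window chr9:20750001-20760000 went the other way. It had 0, 0 and 319 bp at D10, against 2086, 970 and 833 bp at D2 and 501, 767 and 420 bp at D0. With no filter it fell by 2.31 on the log2 scale (SE 0.46, limma adjusted p = 0.00871) at D10 relative to D2, while D10 minus D0 was -1.41 (SE 0.46, limma adjusted p = 0.0625) and is not called. At the upper end of the locus, chr9:20760001-20770000 passed in no contrast, with 1315, 833 and 1314 bp at D10, 703, 584 and 562 bp at D2 and 805, 568 and 695 bp at D0.

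Between KO and WT cells at D10, 3 of the 7 windows tested in the fit of 15 libraries were called (1 higher, 2 lower), beside 25.9% of all windows, 20.8% higher and 5.06% lower. The median tested window was 0.66 higher in KO cells, and relative to it 0 were called higher and 3 lower, beside 9.68% and 9.74% of all windows. With no filter 5 of 30 were called, beside 9.69%. The window chr9:20730001-20740000 had 0 covered bp in KO1 and in KO2 at D10, against 2995, 2806 and 3721 bp in WT A, B and C. With no filter KO minus WT was -4.07 ± 0.51 there. No p is given, since the window's only covered bp outside WT D10 were 390 in WT C at D0. The contrast between D10 and D2 in that difference (interaction) was -4.07 ± 0.72 with no filter, without a p for the same reason. With all deposited peaks the interaction was not called there (limma adjusted p = 0.0599). In the interaction 1 of 7 windows was called higher and 1 lower, beside 9.53% and 1.69% of all windows (11.2% in all), and relative to the median window 0 higher and 2 lower, beside 2.52% and 2.43%. With no filter 2 of 30 were called, both lower, beside 3.22%. The neighbour chr9:20720001-20730000 also had 0 bp in both KO libraries at D10 but its mean over 15 libraries, 490 bp, was under the filter. With no filter KO minus WT was -3.50, with no p, since outside WT D10 only KO2 at D2 had covered bp there (246).

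In chr9:20710001-20720000 KO1 and KO2 had 1500 and 421 bp at D10, against 4310, 4027 and 4831 bp in WT A, B and C. The groups did not overlap, and KO minus WT was -2.16 ± 0.69 with no filter (limma adjusted p = 0.0642), which is not called. In chr9:20750001-20760000, the window that fell in WT cells, KO1 and KO2 had 1887 and 687 bp at D10, against 0, 0 and 319 bp in WT A, B and C. KO cells were higher by 2.31 ± 0.57 (limma adjusted p = 0.00892). That call was lost relative to the median window (1.68, limma adjusted p = 0.0512) and without KO1 at D10 (limma adjusted p = 0.117). The interaction there was 2.61 ± 0.81 (limma adjusted p = 0.0495). It was called neither relative to the median window (limma adjusted p = 0.174), nor with no filter (0.0844), nor with the replicate as a block (0.0626), nor without any of 8 single libraries. At D0 and at D2 none of the 7 windows was called by limma, and none had an unadjusted p under 0.05, beside 0.0508% of all windows called at D0 (0.0381% higher, 0.0127% lower) and 0.0254% at D2 (all of them lower).

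**Figure D2:**
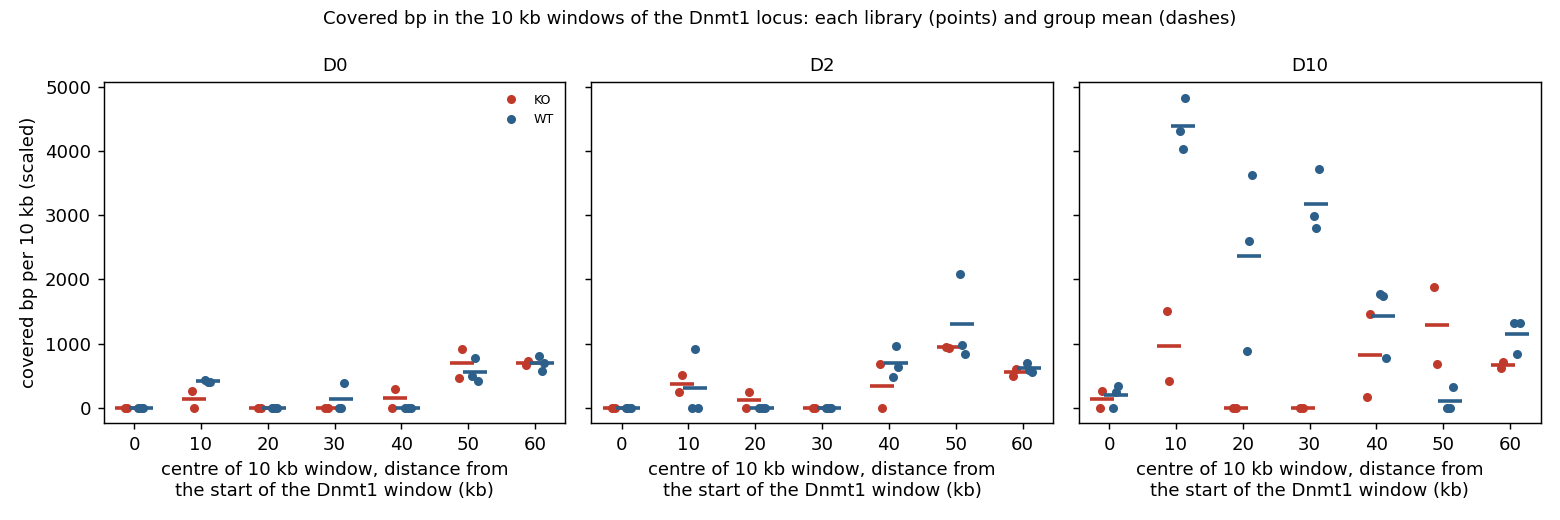
Scaled covered bp in each 10 kb window of the Dnmt1 locus (x axis: centre of the window in kb from the start of the locus window) at D0, D2 and D10, with one point per library and a dash per group mean, KO in red left of WT in blue. At D10 the windows centred 20 and 30 kb along hold 0 bp in both KO libraries, against 884 to 3721 bp in the WT libraries.

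Peak by peak, the gap in KO cells was a run of 19.9 kb, chr9:20719668-20739524, picked out after its values were seen. It was the longest stretch of Dnmt1 regions with no KO D10 peak. At D10 it held 0 and 0 peaks of any strength in KO1 and KO2, against 10, 12 and 10 peaks covering 5056, 5576 and 4874 bp in WT A, B and C. Of its 16 regions, 13 had a peak in a WT D10 list and 8 in all 3 of them. WT cells had few peaks there earlier, 3, 1 and 1 at D2 and 0, 0 and 1 at D0, and KO cells had 0 and 1 at D2 and none at D0. The mESC lists held 2, 4 and 2 peaks there at 0, 12 and 72 hours, in 6 of the 16 regions.

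**Figure D3:**
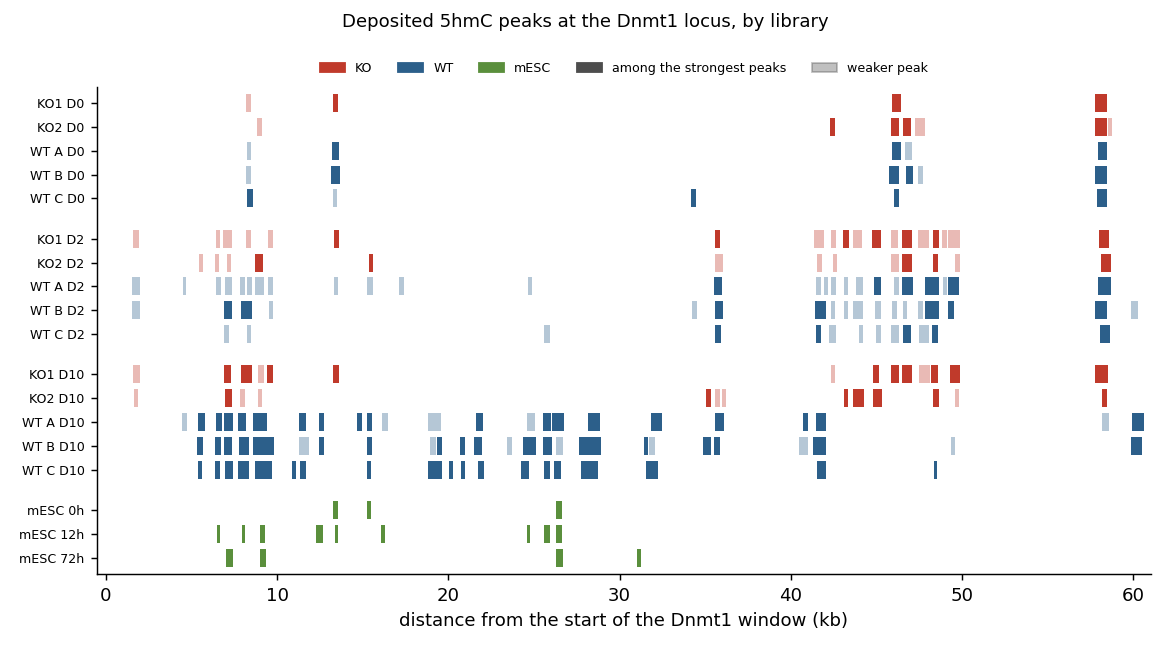
Deposited 5hmC peaks at the Dnmt1 locus, one row per library, in kb from the start of the window (lower coordinates, the 3′ side of the gene, on the left). KO libraries are red and stand above the WT libraries of the same day in blue, mESC libraries are green, and peaks outside the 55130 strongest are pale. WT D10 rows hold 10 to 12 peaks between about 15 and 35 kb, where the KO D10 rows are empty.

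A region counted as gained when all 3 WT libraries of the later day had a peak in it and no WT library of the earlier day did, and as lost in the reverse case. At Dnmt1, 15 of 42 regions (35.7%) were gained in D10 against D0, beside 5.23% of all regions of the genome, and 2 were lost, beside 7.17%. One of the 15, chr9:20764833-20765615, runs past the end of the window and counts peaks of 5 lists that lie beyond it, and by the peaks in the window alone 14 (33.3%) were gained. In D10 against D2 7 were gained (16.7%, beside 2.72%) and 5 lost (11.9%, beside 11.1%), and in D2 against D0 6 were gained (14.3%, beside 6.60%) and none lost (beside 2.03%). At D10 12 regions (28.6%, beside 3.11%) had a peak in all 3 WT libraries and no KO library, and 2 (4.76%, beside 6.63%) had peaks in both KO libraries and no WT library. At D0 no region of the 4 loci was in every library of 1 genotype and in none of the other (beside 0.369% in KO cells alone and 1.31% in WT cells alone), and at D2 no Dnmt1 region was (beside 0.957% and 1.39%). All 12 of the WT regions at D10 were among the 15 gained since D0, and 5 of them had an mESC peak. Gains and WT regions were thus more frequent at Dnmt1 than over the genome, and these are descriptions with no test.

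The longest regions gained show the range of strengths. The region chr9:20732649-20733895 (1247 bp) had a peak in the 3 WT D10 lists and in no other, with the authors' fold enrichment at 5.23, 4.91 and 4.49 in WT A, B and C. The region chr9:20736429-20737483 (1055 bp), chr9:20729254-20730128 (875 bp) and chr9:20723786-20724652 (867 bp) had peaks in all 3 WT D10 lists and no KO list of any day. Shared with KO cells at D10 were chr9:20713612-20714802 (1191 bp), with a peak in both KO lists, and the region across the window's end, chr9:20764833-20765615 (783 bp), with a peak of KO2 beyond it. The region chr9:20746321-20747152 (832 bp) had peaks in all WT lists of D10 and D2 and in both KO lists at D2, but in neither at D10. The region chr9:20740488-20741193 (706 bp) appeared at D2 in all 5 lists.

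Some Dnmt1 regions were shared across days and genotypes. The region with the highest -log10 p of the locus, 29.7 in WT A at D2, was chr9:20762737-20763769, near the 5′ side of the window. It had a peak in 13 pre-iPSC lists, all 6 KO lists among them, and at D10 in both KO lists but only in WT A. There the authors' fold was 7.06 and 4.95 in KO1 and KO2 at D10, against 3.48 in WT A. The longest region of the locus, chr9:20752253-20753656 (1404 bp), had peaks in all 5 lists at D2 and, at D10, in both KO lists and WT C. The 2 regions lost in WT cells by D10, chr9:20718139-20718648 and chr9:20750748-20751416, both still had a peak in KO1 at D10, and the 2 regions of KO cells alone at D10 were chr9:20706543-20706983 and chr9:20749757-20750321. These last 4 fall outside the 10 longest and were named after their values were seen.

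In mESCs the Dnmt1 locus had 3, 9 and 4 peaks at 0, 12 and 72 hours, covering 913, 2482 and 1395 bp, with no replicate. That was 4.15, 11.4 and 8.64 times the genome's share in the same lists. Peaks of mESCs fell in 12 of the 42 regions, and in 1 more beyond the window's end. The region chr9:20731068-20731727, named for this pattern, had a peak in all 3 mESC lists and all 3 WT D10 lists and in no other pre-iPSC list, at folds of 3.84, 3.17 and 2.93 in WT A, B and C and 3.55, 3.38 and 3.55 in mESCs at 0, 12 and 72 hours.

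At Dnmt3a the total under the strongest peaks did not change detectably, and regions were gained and lost at shares close to those of the genome. Covered bp were 2536, 5127 and 4227 in WT A, B and C at D0, 3978, 3660 and 3817 at D2, with 4097, 3546 and 3043 at D10. The days overlapped (exact permutation p of F = 0.9, n = 3 a day). With all deposited peaks WT A, B and C had 5789, 4836 and 3043 bp at D10, all below the 10511, 6996 and 6735 bp at D2, beside 4334, 6927 and 4464 bp at D0 (exact permutation p of F = 0.118). In KO1 and KO2 covered bp were 4139 and 2855 (D0), 5789 and 2011 (D2) and 4261 and 4408 (D10). KO minus WT over the days was -0.00108 on the log2 scale (exact permutation p = 0.995), and at D10 alone 0.28 (exact permutation p = 0.2), where KO1 and KO2 each exceeded all 3 WT libraries. Relative to the genome's share the D10 libraries overlapped, at 2.86 and 3.71 times in KO1 and KO2 against 3.96, 3.49 and 3.65 in WT A, B and C. The KO libraries were uneven, with 33 peaks in KO1 against 12 in KO2 at D2, and 12 in KO1 against 31 in KO2 at D10, while WT A, B and C had 27, 16 and 16 at D2 and 16, 14 and 8 at D10.

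Of the 60 Dnmt3a regions, 18 had a peak in 1 library only and 12 had none in any WT list. The genome's shares of such regions were not computed, so these counts only describe the locus. In D10 against D0, 5 were gained and 5 lost in WT cells (8.33% each, beside 5.23% and 7.17% of all regions). In D10 against D2 1 was gained and 6 lost, beside 2.72% and 11.1%, and in D2 against D0 3 were gained and 1 lost, beside 6.60% and 2.03%. These shares were close to those of the genome. The window chr12:3870001-3880000 had 315, 507 and 741 bp at D10 in WT A, B and C, against 1031, 1338 and 1456 bp at D2. It fell by 1.05 on the log2 scale (SE 0.34, limma adjusted p = 0.0311), a call lost relative to the median window (limma adjusted p = 0.23) and without WT A or B at D10, or WT B or C at D2 (0.0614 to 0.0954). The other tested window, chr12:3910001-3920000, passed in no contrast.

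The strongest peaks of Dnmt3a stood close together. The region chr12:3866793-3867591 held the highest -log10 p of the locus, 39.4 in WT A at D2. It had a peak in 13 pre-iPSC lists and in mESCs at 0 hours, with folds of 9.87 and 4.85 in KO1 and KO2 at D10, against 5.46 and 4.22 in WT A and B. The region chr12:3869852-3870540 (689 bp) was gained at D2 in WT cells and had a peak in all 5 lists at D10. KO2 already had a peak there at D0, at a fold of 8.08. Beside it, chr12:3870826-3872072 (1247 bp) had a peak in all 6 KO lists and in all WT lists of D0 and D2, but in no WT D10 list. Its folds in KO1 and KO2 were 6.94 and 7.41 at D10, 6.76 and 5.09 at D2, and 3.90 and 5.00 at D0. In WT A, B and C they were 7.79, 8.10 and 5.79 at D2 and 5.04, 6.67 and 4.76 at D0.

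That region and chr12:3890792-3891730 (939 bp) were the 2 with a peak in both KO libraries and no WT library at D10 (3.33%, beside 6.63%). The region of 939 bp appeared at D2, with folds of 7.26 and 3.79 in KO1 and KO2 and 9.06, 6.14 and 6.58 in WT A, B and C, and at D10 had 5.38 in KO1 and 4.85 in KO2. The reverse held for 1 region, chr12:3912472-3913618 (1147 bp), with folds of 4.58, 6.12 and 4.10 in WT A, B and C at D10 (1.67%, beside 3.11%).

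Regions that WT cells lost by D10 included chr12:3822666-3823777 (1112 bp) and chr12:3917298-3918469 (1172 bp), each with a peak in all 5 D0 lists and, at D10, in KO1 only. The regions chr12:3811132-3811942 (811 bp) and chr12:3896890-3897498 (609 bp) had peaks in all WT lists at D2 and in none at D10. The region chr12:3808440-3808997, the 1 lost by D2, had a peak in all 5 D0 lists and in no later list. The longest region, chr12:3919267-3920778 (1512 bp), runs past the end of the window and had a peak in 13 pre-iPSC lists, beyond the window's end included. At D2 the 1 region of the 4 loci with both KO libraries and no WT library was chr12:3874602-3874877 (beside 0.957%), at folds of up to 4.28. These short regions were named after their values were seen.

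mESCs had 3, 1 and 3 peaks at Dnmt3a at 0, 12 and 72 hours. Their covered bp, 999, 237 and 794, were 2.18, 0.524 and 2.36 times the genome's share. The 1 region gained in WT cells at D10 against D2, chr12:3864349-3864773, had an mESC peak at 72 hours and a peak in KO2 at D10.

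**Figure D4:**
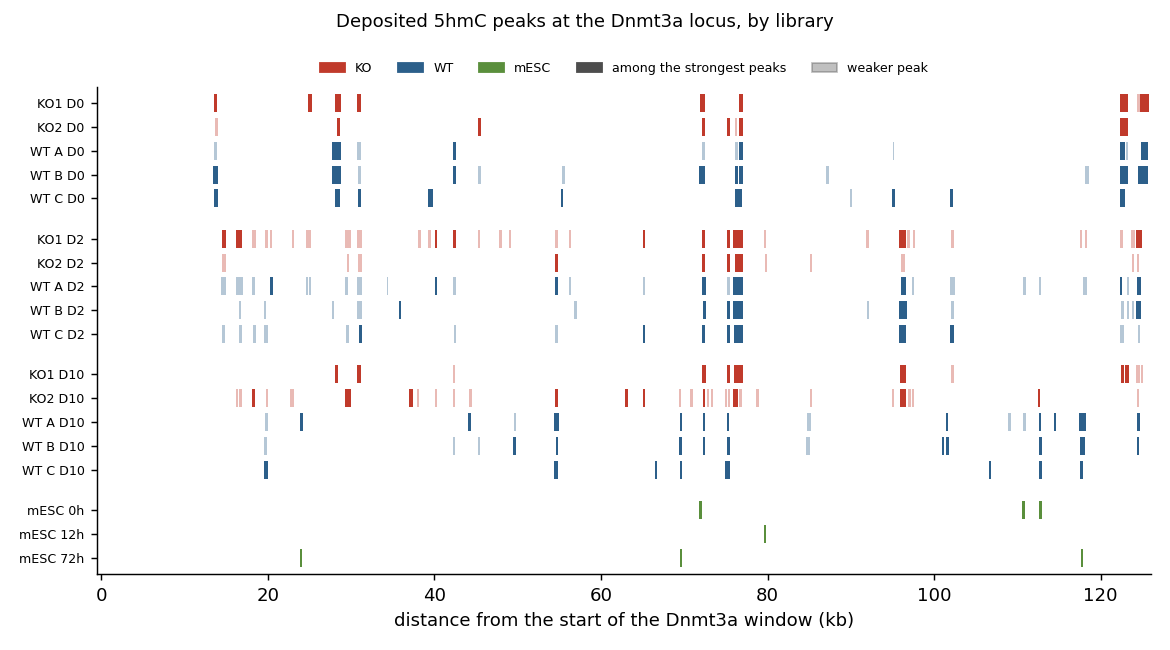
Deposited 5hmC peaks at the Dnmt3a locus, one row per library, in kb from the start of the window (5′ side of the gene on the left), with KO in red above WT in blue at each day and mESCs in green; pale peaks are outside the 55130 strongest. Peaks near 72 to 77 kb stand in nearly every pre-iPSC row, and at about 76 kb they are missing in the 3 WT D10 rows.

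At Dnmt3b 5hmC was sparse at D0 and appeared at D2 in the lower part of the window. Covered bp were 466, 590 and 1120 in WT A, B and C at D0, 1646, 1677 and 2227 at D2, with 624, 1682 and 1474 at D10. All D2 libraries lay above all D0 libraries, and D10 overlapped with both. The exact permutation p of F over the days was 0.0464 (n = 3 a day), 0.139 with scaling to the library total, and 0.0571 to 0.175 without 8 of the 9 libraries in turn, so the call depends on those choices. At D2 the mean was 1850 ± 327 bp against 725 ± 347 bp at D0 (SD, n = 3 each, log2 difference 1.20, exact permutation p = 0.1, the smallest possible).

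Covered bp at Dnmt3b averaged lower in KO cells on each day, with overlap at D10. At D0 neither KO library had a peak of any strength in the locus, against 2, 2 and 3 peaks in WT A, B and C. At D2 covered bp were 949 and 1606 in KO1 and KO2, below all WT libraries, and at D10 they were 349 and 1423, within the WT range. KO minus WT over the days was -1.06 on the log2 scale (two-sided exact permutation within days, p = 0.009, n = 6 KO and 9 WT libraries, taken as independent). With KO lines and WT letters as units the exact permutation p was 0.2. The smallest possible there is 0.1, so that setting could make no call and does not test this one. The p of 0.009 rests on the libraries being independent, which was not shown. At single days it was -2.15 (D0), -0.50 (D2) and -0.54 (D10) (exact permutation p = 0.1, 0.1 and 0.5, with 0.1 the smallest possible). Part of the D0 difference rests on the 200 bp added before taking logs, since both KO libraries are at 0. The call with independent libraries was lost with peaks of -log10 q of at least 5 (-0.82, exact permutation p = 0.072) and without KO1 at D10 (-0.80, exact permutation p = 0.06). Within the styles of run name, KO1 minus WT B was -1.98, -0.71 and -1.78 at D0, D2 and D10, and KO2 minus WT C was -2.72, -0.43 and -0.04.

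The WT peaks at D0 had no common place, as no Dnmt3b region had a peak in all 3 WT D0 lists. So 0 regions were lost in either contrast with D0, although 4 of the 16 had a peak in 1 or 2 WT D0 lists and in no other list. Between D2 and D0 3 of 16 regions were gained (18.8%, beside 6.60%), and in D10 against D2 1 was gained and 3 lost (6.25% and 18.8%, beside 2.72% and 11.1%). In D10 against D0 2 were gained (12.5%, beside 5.23%). The region chr2:153484318-153485381 (1064 bp) was gained at D2 and stayed: it had a peak in all 10 lists of D2 and D10, and in mESCs at 72 hours. Its folds at D10 were 5.24 and 10.3 in KO1 and KO2, against 8.21, 5.85 and 8.20 in WT A, B and C.

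Next to it, 2 regions parted by genotype at D10. The region chr2:153476098-153477394 (1297 bp), the longest of the locus, held its highest -log10 p, 36.4 in WT A at D2, and chr2:153474195-153474930 (736 bp) was gained at D2. Both had peaks in all 5 D2 lists and in both KO D10 lists but in no WT D10 list (2 of 16 regions, 12.5%, beside 6.63%). The authors' folds at D10 were 6.64 and 5.14 in KO1 and KO2 in the longer region, and 4.48 and 3.99 in the shorter. At D2 the longer region had folds of 5.29 and 5.02 in KO1 and KO2, against 11.1, 7.28 and 7.11 in WT A, B and C. Together the 10 kb window that holds them, chr2:153470001-153480000, was under the filter in these fits (mean 436 bp). The third region gained at D2, chr2:153466298-153466834, had a peak in all WT lists and in KO1 on that day and in no list at D10.

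On the other side, chr2:153509164-153509714 (551 bp) was the region of WT cells alone at D10 (6.25%, beside 3.11%), with folds of 3.19, 4.78 and 4.10 in WT A, B and C and 5.30 in mESCs at 12 hours. mESCs had 1 peak at Dnmt3b at each time, each in another region, which covered 374, 356 and 211 bp, or 1.86, 1.79 and 1.43 times the genome's share.

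**Figure D5:**
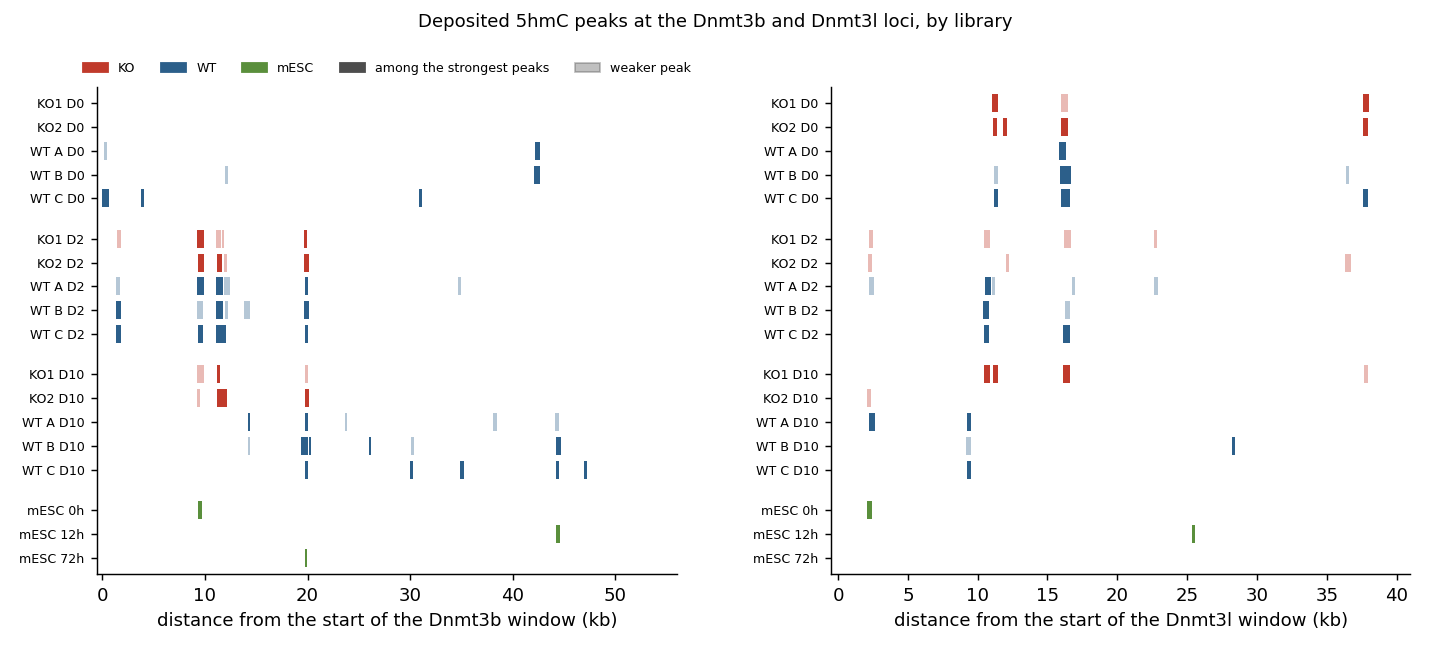
Deposited 5hmC peaks at the Dnmt3b (left) and Dnmt3l (right) loci, one row per library, in kb from the start of each window (5′ side on the left), with KO in red above WT in blue at each day and mESCs in green; pale peaks are outside the 55130 strongest. At Dnmt3b the KO D0 rows are empty, and the regions near 9 to 12 kb hold peaks in the KO D10 rows but not in the WT D10 rows.

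Dnmt3l, the cofactor gene, carried few peaks on any day. Covered bp were 489, 770 and 1251 in WT A, B and C at D0, 392, 475 and 847 at D2, with 734, 232 and 277 at D10 (exact permutation p of F = 0.239, n = 3 a day). In KO1 and KO2 they were 764 and 1483 (D0), 0 and 0 (D2) and 1368 and 0 (D10). At D2 both KO libraries were below all WT libraries (log2 difference -1.90, exact permutation p = 0.1, the smallest possible), yet they held 4 and 3 weaker peaks of 1452 and 897 bp in all, against 5, 2 and 2 peaks in WT A, B and C. KO minus WT over the days was -0.53 (exact permutation p = 0.313), and 0.31 (exact permutation p = 0.335) with all deposited peaks, so it had no stable direction. Without KO1 at D10 it was -1.02 (exact permutation p = 0.0425 with libraries as independent, and 0.2 for all libraries with lines and letters as units).

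The longest Dnmt3l region, chr10:77510849-77511657 (809 bp), was the 1 lost in D10 against D0 (8.33%, beside 7.17%). It had a peak in all 5 D0 lists and at D10 only in KO1, at a fold of 6.22. The region chr10:77504170-77504540 (371 bp) was gained at D10 and had a peak in the 3 WT D10 lists alone, with folds of 5.46, 3.74 and 4.10 in WT A, B and C (the 1 region of WT cells alone at D10, 8.33%, beside 3.11%). The region chr10:77505369-77505938 (570 bp) was gained at D2 in WT cells and lost by D10, while KO1 had a peak there on both days. The highest -log10 p of the locus, 28.4, was in chr10:77532598-77532993 in WT C at D0, the library with a background of its own. That region also had peaks in KO1 and KO2 at D0 and in KO1 at D10. In mESCs Dnmt3l had 1, 1 and 0 peaks at 0, 12 and 72 hours.

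Set side by side at D10, covered bp in KO1 and KO2 were below all 3 WT libraries at Dnmt1, above all 3 at Dnmt3a, and overlapped with them at Dnmt3b and Dnmt3l. Over the genome these peaks covered 1.19 and 0.95% in KO1 and KO2 at D10, more than in any WT D10 library. In WT cells at D10 coverage was 16.7 to 22.0 times the genome's share at Dnmt1, 3.49 to 3.96 at Dnmt3a, 1.37 to 4.02 at Dnmt3b and 0.714 to 2.22 at Dnmt3l. In KO1 and KO2 it was 6.93 and 4.83 at Dnmt1, 2.86 and 3.71 at Dnmt3a, 0.532 and 2.72 at Dnmt3b, and 2.87 and 0 at Dnmt3l. On this scale the genotypes overlapped at all loci but Dnmt1. Regions of WT cells alone at D10 numbered 12, 1, 1 and 1 at Dnmt1, Dnmt3a, Dnmt3b and Dnmt3l, and those of KO cells alone 2, 2, 2 and 0. All 6 regions of KO cells alone had a peak in at least 1 WT list at D2, a share not computed for the genome. No difference between the loci was tested.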

How the data were processed

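5hmC was labelled through a glucose azide, coupled to biotin, captured on beads and sequenced, per the labels' protocols. Per the submitters' processing notes, Bowtie, SAMtools, MACS2 and mm9 were used, with versions not given in these sources. Each of the 18 lists, 1 per library, holds the authors' score, the fold enrichment (a ratio at the summit) and -log10 p and q of each peak as deposited. The mESC labels say that peaks were not called, yet lists are deposited and were used whole. The lists used whole reach down to a -log10 p of 4.00 to 4.03. The columns of values were used to rank and filter peaks within a list, to read the relative depth and to describe single peaks. Folds set side by side between libraries were neither adjusted for depth nor tested. Absolute depth is unknown.

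From them were computed peak numbers, covered bp and merged regions (1 bp of overlap) at each locus, compared by exact permutation over samples, and covered bp in 10 kb windows (strongest 55130 peaks a library, scaled to the mean total, pseudocount 200 bp, mean of at least 500 bp), compared by limma 3.58.1 in R 4.3.3 (trend, robust) with Benjamini-Hochberg adjustment at 0.05. The WT libraries had a fit of 9 and KO contrasts a fit of 15 in 6 groups. Both tests were tested on simulated data. Samples were grouped by their titles. KO1 and KO2 were taken as the same line on each day, and their deviations from group means correlated by 0.23 to 0.34 between days, which mirror each other with 2 lines. Windows were named where called with groups that do not overlap. Regions were named where gained or lost between WT days, present in 1 genotype only at a day, in at least 2 mESC lists, longest or strongest, and beyond 10 a locus the longest. Other genes of DNA methylation were to be counted in the same way if an mm9 annotation was at hand, and were left out. The members and lists were chosen with earlier results of these data known. Alternatives covered other peak sets, scaling, filters, pseudocounts, blocks and each library left out; leaving out libraries for the region counts, and KO lines and WT letters as units, were added after seeing the data.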

Additional observations from a re-analysis of the deposited data

Results flagged for a closer look

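At Dnmt1 the difference between KO and WT cells at D10 was set against that at D2, and 2 windows were called. In chr9:20730001-20740000 both KO libraries had 0 covered bp at D10 and at D2, while WT cells averaged 3174 ± 483 bp at D10 and 0 bp at D2 (SD, n = 3). The change in the difference was -4.07 with no filter, and no p is given. The window passes the filter through WT D10 alone, and its only other covered bp were 390 in WT C at D0. With all deposited peaks WT B and C had 275 and 320 bp there at D2. The call is lost with all deposited peaks (limma adjusted p = 0.0599). In chr9:20750001-20760000 KO cells averaged 1287 ± 849 bp at D10 and 939 ± 4.56 bp at D2 (SD, n = 2), while WT cells averaged 106 ± 184 bp and 1297 ± 687 bp (SD, n = 3). The change in the difference there was 2.61 (limma adjusted p = 0.0495). It is not called relative to the median window (limma adjusted p = 0.174), with no filter (0.0844), with a pseudocount of 50 bp (0.0606), with all deposited peaks (0.0553), with the replicate block (0.0626) or without any of 8 single libraries.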

How the results depend on the processing

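Of 501 recomputed values, 392 were counted as unchanged, and 157 of the 200 that left out no library were so. For KO minus WT over days, unchanged meant the same direction and side of the threshold. For the p over WT days it meant the same side of the threshold. For windows called it meant the same direction and still called. For counts of windows and regions it meant only an equal or similar number, with neither direction nor members checked. For 5 of the 8 windows tested in WT cells and 3 of the 7 in the fit of 15 libraries the filter itself rested on the highest group, so their calls under settings that keep the filter say nothing about stability. Over all days KO minus WT was, with scaling, -0.66 at Dnmt1, and with 1 library left out -0.62 to -0.35. At Dnmt3a it was 0.15 with all deposited peaks, 0.17 with -log10 q of at least 5 and -0.24 to 0.24 with 1 library left out, so its sign was not fixed. At Dnmt3b it was -1.06 with KO lines and WT letters as units (exact permutation p = 0.2, a setting chosen after seeing the data), -0.82 with -log10 q of at least 5 and -1.32 to -0.80 with 1 library left out, and at Dnmt3l 0.31 with all peaks and -1.02 to -0.03 with 1 left out. The p over WT days at Dnmt3b was 0.139 with scaling, 0.0464 to 0.175 with 1 left out and 0.0556 with the replicate letter as a block (Dnmt1 0.0278 with the block). The letters do not pair WT samples (correlations of -0.03 to 0.05 between days). For 1 window called in WT D2 minus D0, 4 were called with all peaks, 4 with no filter, 0 in the fit of 15 libraries and 1 to 2 with 1 library left out. In WT D10 minus D2, 8 windows were called with all peaks (5 in the main test). In D10 minus D0, 8 were called with -log10 q of at least 5 and 10 with no filter. For KO minus WT at D10, 7 were called with all peaks, 7 with -log10 q of at least 5, 5 with no filter and 1 to 3 with 1 left out, where 3 were called, and without WT C at D10 1. The 2 interaction calls became 0 with all peaks, 4 with -log10 q of at least 5, 1 with a pseudocount of 50 bp, 1 with the replicate block and 1 to 3 with 1 left out. Relative to the median window the calls became 6 higher and 1 lower in D10 minus D2 (3 and 2 in the main test), 4 and 0 in D10 minus D0 (4 and 1), 0 and 3 for KO minus WT at D10 (1 and 2) and 0 and 2 in the interaction (1 and 1). Among regions, the strongest peaks alone gave 6 gained (13 with all) and 2 lost (1 with all) in WT D2 against D0, 5 lost (15 with all) in D10 against D2, and at D2 0 of KO cells alone and 1 of WT cells alone. With 1 library left out, 1 to 3 regions were lost at D2 against D0. Those of KO cells alone then numbered 0 to 4 (D0), 1 to 8 (D2) and 7 to 24 (D10; 24 without KO1, 18 without KO2), and those of WT cells alone 0 to 3 (D0) and 0 to 8 (D2). The cause was not tested in any case. With 2 KO libraries a day, 0.1 was the smallest p at a single day.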
